A study of Mus musculus with 6 samples.

Results

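Cyclins are the regulatory subunits of the cyclin-dependent kinases, and the genes described here are the cyclins Ccnd1, Ccnd2, Ccnd3, Ccne1, Ccna2, Ccnb1 and Ccnb2 and the kinases Cdk4, Cdk2 and Cdk1. They were chosen by name as core genes of the cell cycle and are 10 of the 26012 genes listed for each heart. All 10 were found, and all 10 passed the filter on low values. RNA was sequenced from the ventricles of 6 male C57BL/6 mice that were 8 weeks old at surgery, in which ligation of the LAD, a main coronary artery of the left ventricle, caused a myocardial infarction (MI). Directly after ligation, 3 hearts received control mimic and the other 3 received miR-19a/19b mimic, by injection around the infarct of 10 μg per heart in a lipid reagent. Hearts of both groups were collected 4 days after MI, so every heart was infarcted and injected, and the comparison is between mimics only. Mimics are short double-stranded RNAs made to stand in for a mature miRNA. They are not directed to 1 cell type, and the libraries, made from polyadenylated RNA, hold no measure of the miRNA delivered.

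A cell divides in ordered phases, with growth in G1, DNA synthesis in S, a second gap in G2 and mitosis in M. D-type cyclins with Cdk4 respond to growth signals and start the phosphorylation of the retinoblastoma protein Rb, which releases E2F transcription factors. Cyclin E with Cdk2 drives entry into S phase, cyclin A2 acts with Cdk2 in S phase and with Cdk1 later, and the B cyclins with Cdk1 drive mitosis. In the adult heart most cardiomyocytes have left the cycle, while in the days after an infarct immune cells, fibroblasts and endothelial cells divide in the injured wall.

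The injected agents differ from each other in 1 base. Their mature sequences in RefSeq are shown because the bases in capitals, positions 2 to 8 from the 5′ end, are the seed through which a miRNA pairs with the 3′ untranslated region (3′ UTR) of its targets.
mmu-miR-19a-3p: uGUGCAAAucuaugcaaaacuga
mmu-miR-19b-3p: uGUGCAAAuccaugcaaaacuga
Both share the seed, and the single difference is U11C, counted from the 5′ end of miR-19a-3p. On GRCm38.p6 miR-19a-3p lies at chr14:115044048-115044070 (plus strand), and miR-19b-3p lies at chr14:115044358-115044380 (plus strand) and at chrX:52741991-52742013 (minus strand).

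Matches to this seed stood in the longest annotated 3′ UTR of 3 of the 10 genes. Over all tested genes with a 3′ UTR, 3070 of 15866 (19.3%) held a match, and 922 (5.8%) held the longer form, TTTGCACA. The shorter forms searched were TTTGCAC and TTGCACA, each of which lies within the longer one. The sites are shown from the transcribed strand of GRCm38, with the match in capitals, because Ccnd1, Ccnd2 and Ccna2 are the members with a match.
Ccnd1: aacaacagtaggtaaTTTGCACAcctctgg
Ccnd2: ttttgttttttttttTTTGCACAattataa
Ccna2: cttggtgccttctggTTTGCACtggtctga
The Ccnd1 stretch lies at chr7:144930997-144931026 (minus strand), and its match begins 1596 bases after the stop codon. The Ccnd2 stretch lies at chr6:127128816-127128845 (minus strand), with the match 1505 bases after the stop codon, and the Ccna2 stretch at chr3:36565432-36565461 (minus strand), with the match at 788. Ccnd1 and Ccnd2 carry the longer form and Ccna2 the shorter. Ccnd1 and Ccnd2 have 3′ UTRs of 2676 and 5173 bases, against a median of 1261 over the genes searched, and a longer 3′ UTR holds any short word more often. A match is a description of the sequence and does not show that the site was bound.

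Reads counted on genes came to between 19398196 and 23645308 per heart. Values are normalized counts, that is, read counts scaled by the size factor of each library (0.905 to 1.16). Markers of ventricular tissue were present, since none of 12 cardiomyocyte genes was at 0 in every heart. Replicate 3 of the miR-19a/19b mimic stood apart. Its counts differed from those of the other 2 hearts of its group by 122.69 and 109.84 when measured as chi-square per degree of freedom over genes, which is 1 for sampling noise alone. On this measure all other pairs within a group lay between 9.49 and 24.42. The fitted differences are therefore also given without it. The sum of 9 skeletal muscle genes was 2666 normalized counts in replicate 1 of the miR-19a/19b mimic, where the other hearts lay between 35.1 and 73.5.

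None of the 10 cyclins and kinases differed between the groups at an adjusted p under 0.05. The test was limma on log2(normalized count + 1), adjusted over the 21126 genes tested, and 0.0% of these were called. All 10 had an adjusted p of 1. Without adjustment, 0 of the 10 had p under 0.05, where 1.39% of all genes were higher and 2.63% were lower at that level. For each of the 10 genes the values of the groups overlapped, while 9.2% of all genes did not overlap. The fitted difference was positive for 8 genes and negative for Ccnd1 and Ccnd2, with a median log2 fold change of 0.03 over the 10 against 0.00 over all genes. Of the positive ones, Cdk4 and Ccna2 turned negative when scaled to total reads, and Cdk4, Ccna2, Cdk2 and Cdk1 turned negative with array weights. Fold changes on this scale are close to ratios here, since the 10 genes had at least 137 reads in every heart.

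**Figure D1:**
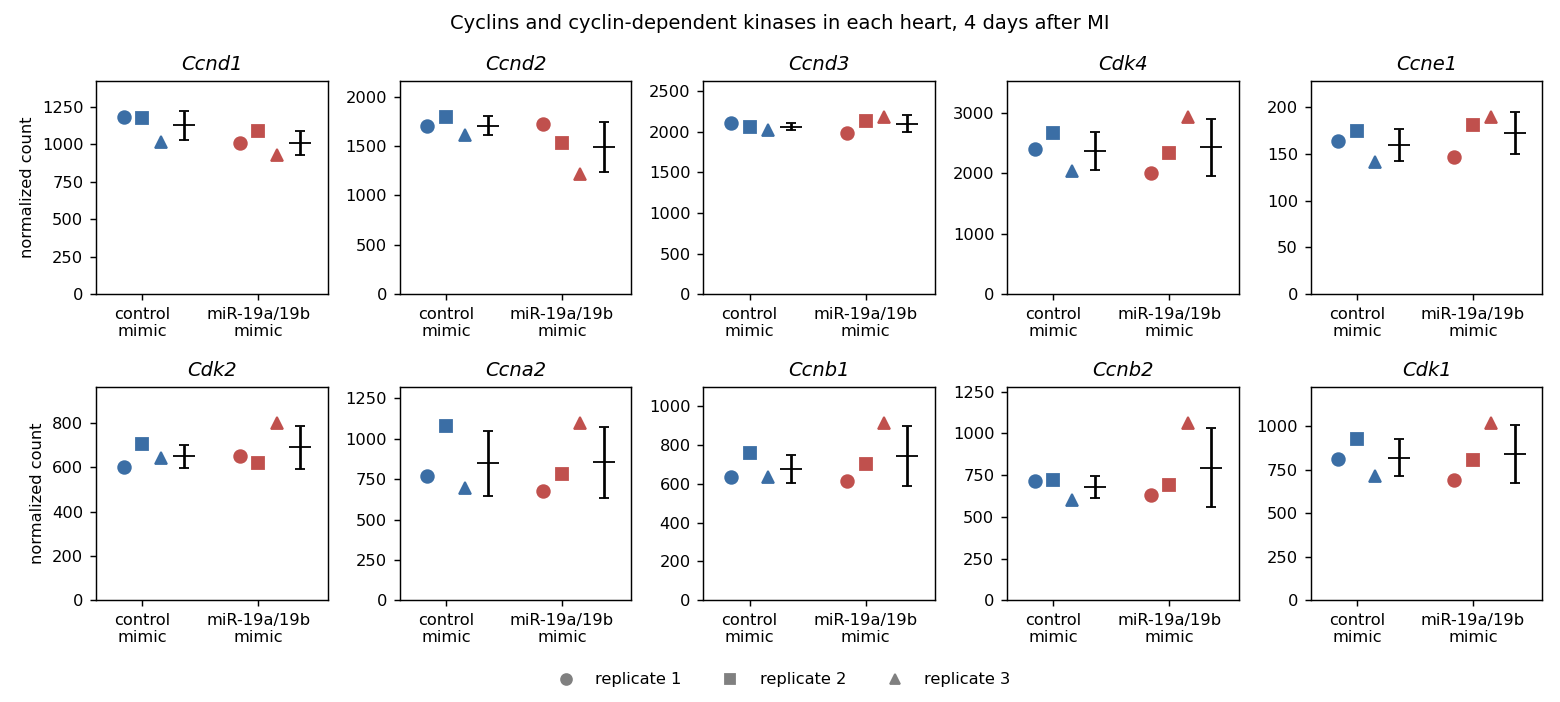
Normalized count (linear axis from 0) of each cyclin and kinase in each heart, control mimic in blue and miR-19a/19b mimic in red, with the replicate by symbol and the group mean ± SD (n = 3) in black. The red triangle, miR-19a/19b mimic replicate 3, is the highest point in 8 panels and the lowest for Ccnd1 and Ccnd2.

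Ccnd1 (ENSMUSG00000070348, chr7:144929931-144939925, minus strand) encodes cyclin D1, which joins growth factor signals to the cycle. Its normalized counts were 1185.9, 1178.9 and 1016.4 in control mimic replicates 1, 2 and 3, against 1008.1, 1090.8 and 926.7 in replicates 1, 2 and 3 of the miR-19a/19b mimic. Of the hearts with miR-19a/19b mimic 2 lay below all controls and the other lay within them. The means, here and throughout control mimic first and miR-19a/19b mimic second, were 1127 ± 95.9 and 1009 ± 82.1 (SD, n = 3 each). The fitted ratio was 0.895 with a 95% interval of 0.753 to 1.06, which includes 1.

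Ccnd2 (ENSMUSG00000000184, chr6:127125162-127152193, minus strand) encodes cyclin D2, the D cyclin with the longest annotated transcript. Control mimic replicates 1, 2 and 3 gave 1706.5, 1799.6 and 1608.7 normalized counts, and miR-19a/19b mimic replicates 1, 2 and 3 gave 1722.5, 1533.1 and 1217.1. Replicate 1 of the miR-19a/19b mimic lay among the controls and the other hearts of its group lay below them. Mean levels were 1705 ± 95.4 and 1491 ± 255 (SD, n = 3 each), a fitted ratio of 0.867 (95% interval 0.700 to 1.07). This was the largest fitted difference of the 10, at -0.21 ± 0.13 (SE) on the log2 scale, and without replicate 3 of the miR-19a/19b mimic it was -0.07.

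Ccnd3 (ENSMUSG00000034165, chr17:47505051-47599691, plus strand) encodes cyclin D3, common in blood cell lineages. It varied least of the 10 genes. Normalized counts were 2113.2, 2056.3 and 2022.6 with control mimic and 1984.0, 2136.2 and 2188.7 with miR-19a/19b mimic (replicates 1, 2 and 3), and the highest heart exceeded the lowest by a ratio of 1.103. The fitted ratio between groups was 1.02, with an interval of 0.879 to 1.18.

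The D cyclins share a role, and their proportions can be set against each other once each count is divided by gene length. Ccnd3 made up 35.7%, 34.7% and 37.3% of the summed D cyclin level in control mimic replicates 1, 2 and 3, against 36.3%, 38.2% and 43.3% in replicates 1, 2 and 3 of the miR-19a/19b mimic. Ccnd2 made up 26.9%, 28.3% and 27.7% with control mimic and 29.4%, 25.5% and 22.5% with miR-19a/19b mimic. The shares of the groups overlapped for each of the D cyclins, and the heart with the highest share of Ccnd3 was the heart with the lowest share of Ccnd2. The shares depend on the length used. Per length of the longest transcript, Ccnd3 made up 47.1% to 56.3% over the 6 hearts, Ccnd1 24.6% to 28.0% and Ccnd2 19.1% to 25.8%.

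Cdk4 (ENSMUSG00000006728, chr10:127063534-127067920, plus strand) encodes the kinase that D cyclins activate. It gave 2406.1, 2672.1 and 2042.2 normalized counts in control mimic replicates 1, 2 and 3, against 2006.6, 2337.2 and 2936.5 in replicates 1, 2 and 3 of the miR-19a/19b mimic. The hearts with miR-19a/19b mimic held both the lowest and the highest value. The means of 2373 ± 316 and 2427 ± 471 (SD, n = 3 each) gave a fitted ratio of 1.02 (95% interval 0.792 to 1.30). Of its partners, Ccnd1 and Ccnd2 were lowest in the heart where Cdk4 was highest, and Ccnd3 was highest there.

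Ccne1 (ENSMUSG00000002068, chr7:38097984-38107534, minus strand) encodes cyclin E1, the partner of Cdk2 at the start of S phase. It was the least abundant of the 10, with between 137 and 220 reads per heart, the smallest numbers of the 10. Normalized counts were 163.6, 174.7 and 141.1 with control mimic and 147.4, 181.5 and 190.2 with miR-19a/19b mimic. In the latter group 2 hearts lay above all controls and the third lay within them. The fitted ratio was 1.08 (95% interval 0.845 to 1.38).

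Cdk2 (ENSMUSG00000025358, chr10:128697939-128705051, minus strand), which encodes the kinase of S phase entry, gave 603.5, 704.6 and 640.9 normalized counts in control mimic replicates 1, 2 and 3. With miR-19a/19b mimic it gave 653.1, 618.6 and 801.3. Replicate 3 alone lay above the controls. The fitted ratio was 1.06, with an interval of 0.869 to 1.29.

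The genes that act from S phase to mitosis varied more between hearts of a group than the D cyclins. Their SD was 9.67% to 24.0% of the mean with control mimic and 19.8% to 29.5% with miR-19a/19b mimic, against 2.22% to 8.51% and 5.06% to 17.1% for the D cyclins. Ccna2 (ENSMUSG00000027715, chr3:36564865-36572150, minus strand), which encodes cyclin A2, gave 768.1, 1078.4 and 695.1 normalized counts in control mimic replicates 1, 2 and 3, against 678.9, 783.5 and 1099.6 in replicates 1, 2 and 3 of the miR-19a/19b mimic. Each group had 1 high heart and 2 lower ones, and the means of 847 ± 204 and 854 ± 219 (SD, n = 3 each) differed by far less than this spread. The fitted ratio was 1.01 and its interval, 0.724 to 1.40, was wide.

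Ccnb1 (ENSMUSG00000041431, chr13:100778650-100786570, minus strand) encodes cyclin B1, the main mitotic partner of Cdk1. Its normalized counts were 632.2, 759.3 and 635.3 with control mimic and 612.2, 700.0 and 913.7 with miR-19a/19b mimic (replicates 1, 2 and 3). The hearts with miR-19a/19b mimic lay below, within and above the controls. Means were 676 ± 72.5 and 742 ± 155 (SD, n = 3 each), and the fitted ratio was 1.09 (95% interval 0.850 to 1.39).

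Ccnb2 (ENSMUSG00000032218, chr9:70407689-70421554, minus strand) encodes the other mitotic B cyclin. It gave 715.1, 719.3 and 603.5 normalized counts with control mimic and 632.6, 688.7 and 1064.1 with miR-19a/19b mimic. Replicates 1 and 2 of the latter lay within the controls, and replicate 3 was 1.61 times their mean, the widest such gap of the 10 genes. The fitted ratio was 1.14 (95% interval 0.850 to 1.54), and without replicate 3 the log2 fold change went from 0.19 to -0.04.

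Cdk1 (ENSMUSG00000019942, chr10:69336635-69352938, minus strand) encodes the kinase of mitosis. Control mimic replicates 1, 2 and 3 gave 810.1, 929.1 and 715.6 normalized counts, and miR-19a/19b mimic replicates 1, 2 and 3 gave 692.9, 807.3 and 1020.0. The lowest and the highest heart were both in the miR-19a/19b mimic group. Mean levels were 818 ± 107 and 840 ± 166 (SD, n = 3 each), a fitted ratio of 1.02 (95% interval 0.795 to 1.31).

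Without replicate 3 of the miR-19a/19b mimic, the fitted difference was negative for 9 of the 10 genes, all but Ccne1. In the same fit the difference was positive for 12 of 12 cardiomyocyte genes (median log2 fold change 0.58), negative for 11 of 12 macrophage genes (median -0.27) and negative for 8 of 8 neutrophil genes (median -0.71), and their part in the values of the cyclins and kinases was not tested. Of the cyclins and kinases, Ccna2 had the largest difference in that fit, with a log2 fold change of -0.19 (95% interval -0.54 to 0.17), followed by Cdk4 and Cdk1 at -0.12 each. The sign of the difference for Ccnd3, Cdk4, Cdk2, Ccna2, Ccnb1, Ccnb2 and Cdk1 thus rested on that heart, while Ccnd1 and Ccnd2 stayed negative. Cdk4 and Cdk1 also turned negative without control mimic replicate 3, at -0.08 and -0.06, and Ccna2 did so without control mimic replicate 1 or 3, at -0.05 and -0.12. With miR-19a/19b mimic replicate 3 left out, 361 of the 21126 genes tested were higher and 154 lower at an adjusted p under 0.05 (limma). None of the 10 was among them, with adjusted p between 0.674 and 0.992. At a share this small, none of 10 does not set the members apart from other genes.

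**Figure D2:**
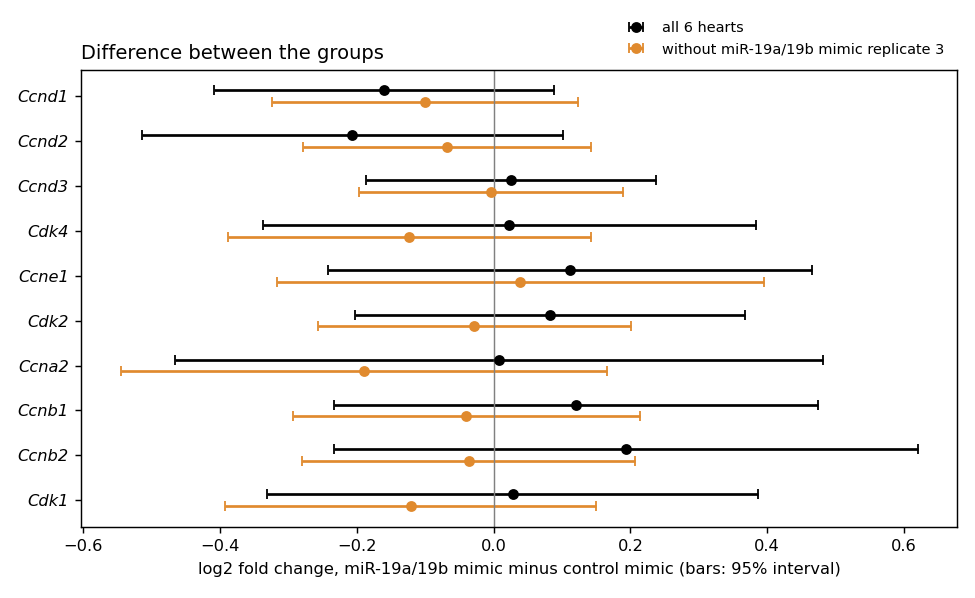
Fitted log2 fold change (miR-19a/19b mimic minus control mimic) of each gene with its 95% interval, from all 6 hearts in black and without miR-19a/19b mimic replicate 3 in orange. Every interval crosses 0, and without that heart 9 of 10 estimates lie below 0.

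The genes of S phase and mitosis were high or low in largely the same hearts. The normalized counts of Ccna2, Ccnb1, Ccnb2 and Cdk1 gave sums of 2925.6, 3486.0 and 2649.5 for replicates 1, 2 and 3 of the control mimic. For replicates 1, 2 and 3 of the miR-19a/19b mimic the sums were 2616.6, 2979.5 and 4097.4. The mean of their log2 differences from the control mean was 0.46 in miR-19a/19b mimic replicate 3 and 0.21 in control mimic replicate 2, and was -0.19 in miR-19a/19b mimic replicate 1 and -0.17 in control mimic replicate 3. Each group thus held a heart with a high and a heart with a low level of these genes. Replicate 3 of the miR-19a/19b mimic was the highest heart for 8 of the 10 genes, where it was the highest for 4791 of all 21126 genes (22.7%). Replicate 1 of the same group was the lowest heart for Ccnd3, Cdk4, Ccna2, Ccnb1 and Cdk1.

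**Figure D3:**
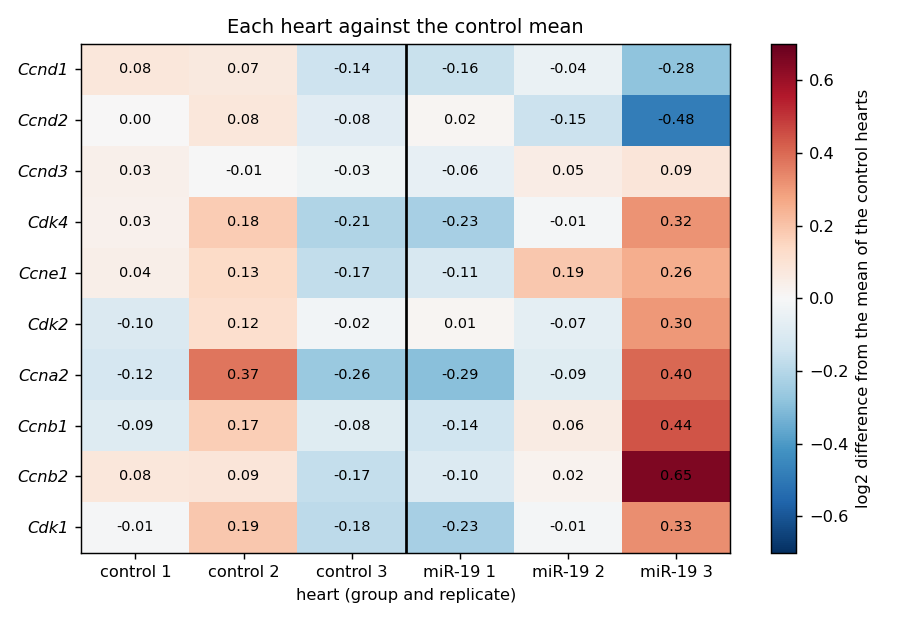
Log2 difference of each gene in each heart from the mean of the control hearts, red above and blue below it, with the value printed in each field. The column of miR-19a/19b mimic replicate 3 runs from -0.48 for Ccnd2 to 0.65 for Ccnb2, and control mimic replicate 2 is above the mean for 9 of the 10 genes.

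Markers of cell types differed between the same hearts. The 12 cardiomyocyte genes gave sums of 736100, 631900 and 812700 normalized counts for replicates 1, 2 and 3 of the control mimic. For the miR-19a/19b mimic the sums were 1123000, 1004000 and 384000. The heart with the highest sum of S phase and mitosis genes therefore had the lowest cardiomyocyte sum, and none of the 12 cardiomyocyte genes was highest there. Macrophage genes (12 names, 13 listed genes) summed to 85700, 100300 and 87150 with control mimic and to 69980, 81350 and 107700 with miR-19a/19b mimic. Their highest and their lowest heart were those of the mitotic genes. Neutrophil genes (8) ran from 1149 in miR-19a/19b mimic replicate 1 to 3625 in replicate 3. The fibroblast sum (10 genes) was highest in miR-19a/19b mimic replicate 3, at 905300, against 555600 to 801600 in the other hearts. These lists were not uniform. Taken singly, 5 of the 10 fibroblast genes, 5 of the 8 neutrophil genes and 8 of the 13 listed macrophage genes were highest in that heart. Endothelial genes (10), from 29960 to 37390, and B cell genes (6), from 403 to 561, had neither extreme in that heart. T cell genes (10) summed to between 277 and 395 with control mimic and between 220 and 244 with miR-19a/19b mimic, and 9 of the 10 had a negative difference. Smooth muscle and pericyte genes (8) ran from 36720 to 49190, and erythroid genes (6) from 1999 in miR-19a/19b mimic replicate 3 to 4139. With all 6 hearts, no gene of these lists was called by limma at an adjusted p under 0.05. Without miR-19a/19b mimic replicate 3, 4 of the 12 cardiomyocyte genes and 1 of the 8 smooth muscle and pericyte genes were called higher. In the same fit 1 of the 8 neutrophil genes was called lower. Of all 21126 genes, 361 were called higher and 154 lower there. Their part in the values of the cyclins and kinases was not tested, and in RNA from whole ventricle fewer cells of a type and less RNA per cell cannot be told apart.

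**Figure D4:**
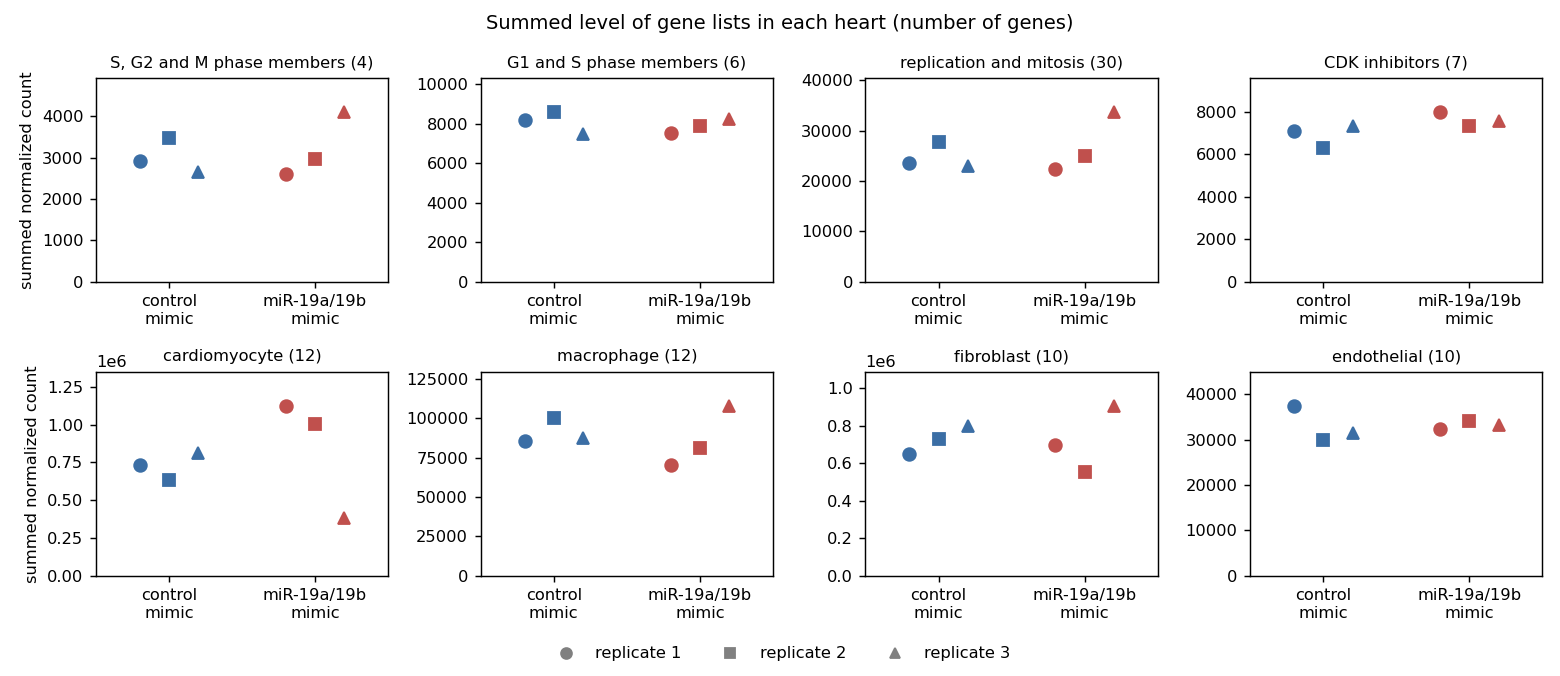
Summed normalized count (linear axes from 0) of gene lists in each heart, with the number of gene names in parentheses, control mimic in blue, miR-19a/19b mimic in red and the replicate by symbol. In miR-19a/19b mimic replicate 3 (red triangle) the mitotic cyclins and Cdk1, the replication and mitosis genes and the macrophage genes are at their highest and the cardiomyocyte genes at their lowest.

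Divided by gene length, the levels of the 10 genes spanned a ratio of 11.8 over the mean of the 6 hearts. In RPKM, which scales reads to gene length and to the reads of the library, Cdk4 was at 34.5 ± 6.93, Ccnb2 at 22.4 ± 6.22 and Cdk2 at 12.8 ± 2.01 (SD, n = 6). Cdk1 followed at 11.2 ± 2.28, Ccnd3 at 11.02 ± 0.889 and Ccnd1 at 10.5 ± 1.149. Lower levels were found for Ccna2 at 9.75 ± 2.66, Ccnd2 at 7.86 ± 0.960, Ccnb1 at 7.84 ± 1.66 and Ccne1 at 2.91 ± 0.455. Of the neighbours in this order, the ranges over hearts were separate for Ccnb2 above Cdk2 and for Ccnb1 above Ccne1, and overlapped for the rest. Cdk4 exceeded Ccnb2 within each of the 6 hearts although their ranges overlapped. The order depends on which length is used. With the length of the longest transcript in place of the authors' gene length, Ccnd3 went from 11.02 to 25.1 and stood next after Cdk4, above Ccnb2. Cdk2 went from 12.8 to 9.56 and Cdk1 from 11.2 to 8.845, which left only Ccne1 below them.

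**Figure D5:**
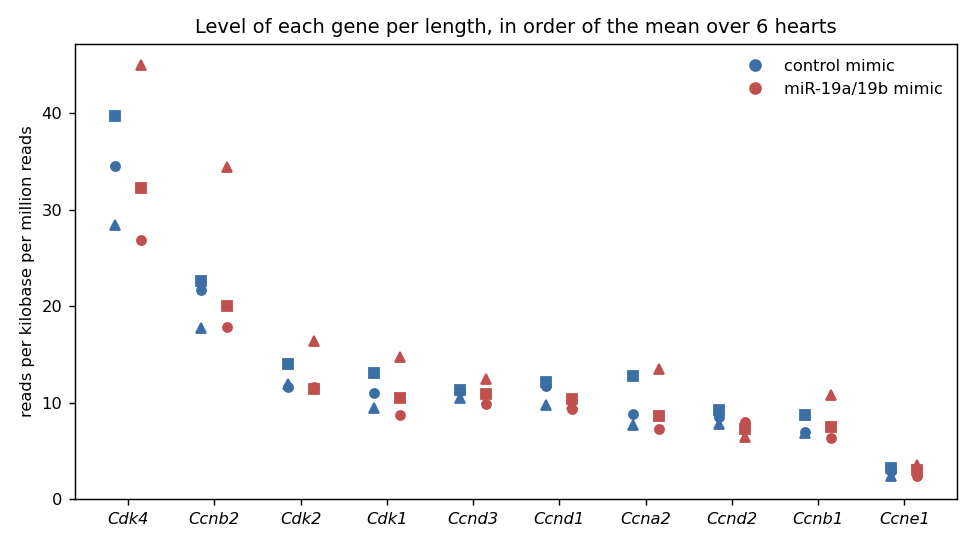
RPKM, reads scaled to gene length and library total (linear axis from 0) of each gene in each heart, in order of the mean, control mimic in blue and miR-19a/19b mimic in red, with circles, squares and triangles for replicates 1, 2 and 3. Cdk4 is the highest gene and Ccne1 the lowest in every heart.

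Among the 12737 genes at a mean of 50 or more normalized counts, Cdk4 was the one whose pattern over the 6 hearts was closest to that of Cdk1. The measure was the root mean square difference of log2 values, each centred on its own mean, which was 0.02 for Cdk4 where Cdk1 itself varied by 0.20. Next came Clta (clathrin light chain A), S100a6 (a calcium-binding protein), Ap2s1 (an adaptor subunit of clathrin coats) and Tuba1c (an alpha-tubulin), at 0.03 each. Ccnb1 ranked 107 in this order, Ccne1 354, Ccna2 503, Cdk2 1162 and Ccnb2 1208, while Ccnd1 ranked 6569 and Ccnd2 9884. Cdk1 was thus more like Cdk4 than like any of its own cyclins in these hearts.

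Among the 5 genes closest to Ccnb1 were Top2a, Wdhd1, Slc38a6 and Creld2, with differences of 0.04 each where Ccnb1 varied by 0.20. Top2a encodes DNA topoisomerase II alpha, which untangles chromosomes, and Wdhd1 acts in DNA replication, while Slc38a6 encodes an amino acid transporter and Creld2 a protein of the endoplasmic reticulum. Top2a gave 2139.7, 2746.2 and 2123.5 normalized counts with control mimic and 2073.3, 2462.0 and 3102.4 with miR-19a/19b mimic. Ccnd1 was closest to Atf5, a transcription factor of the stress response, at 0.03, followed by Avpi1, Mtx3, Ergic2 and Dnajc2 at 0.04 each, where Ccnd1 varied by 0.13. None of these is a cell cycle gene of the lists, and Ccnd2, the member most like Ccnd1, ranked 1154. These are descriptions over 6 hearts, and genes compared this way share the libraries and the wide deviation of miR-19a/19b mimic replicate 3.

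The sequence before the start sites of Cdk1, Ccnb1 and Ccnb2 is shown from RefSeq (GRCm38.p6), because they encode the kinase and the B cyclins of mitosis. Capitals mark the words CCAAT (or ATTGG on the other strand), TTTGAA (or TTCAAA) and the E2F forms TTTCCCGC, TTTCGCGC, TTTGCCGC and TTTGGCGC with their reverse complements. Bases that lie within an annotated transcript are left out, so the Cdk1 and Ccnb1 sequences end 26 and 84 bases before the RefSeq start.
Cdk1: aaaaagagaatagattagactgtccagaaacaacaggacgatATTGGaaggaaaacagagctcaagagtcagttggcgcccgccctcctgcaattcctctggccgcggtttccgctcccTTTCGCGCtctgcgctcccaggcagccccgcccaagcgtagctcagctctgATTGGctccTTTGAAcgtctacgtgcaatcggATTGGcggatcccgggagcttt
Ccnb1: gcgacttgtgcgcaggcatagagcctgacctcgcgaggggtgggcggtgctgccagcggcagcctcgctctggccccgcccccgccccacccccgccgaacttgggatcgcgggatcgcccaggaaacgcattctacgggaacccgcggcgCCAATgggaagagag
Ccnb2: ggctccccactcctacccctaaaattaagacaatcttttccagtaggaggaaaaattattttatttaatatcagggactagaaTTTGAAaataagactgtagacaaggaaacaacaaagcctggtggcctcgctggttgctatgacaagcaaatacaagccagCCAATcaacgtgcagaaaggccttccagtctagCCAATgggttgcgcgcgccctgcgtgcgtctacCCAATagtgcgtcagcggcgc
The stretches lie at chr10:69352939-69353162 for Cdk1, chr13:100786571-100786736 for Ccnb1 and chr9:70421555-70421804 for Ccnb2, all on the minus strand. In the full 250 bases before the start, Cdk1 held 3 CCAAT words, at 208, 80 and 48 bases, 2 TTTGAA words, at 71 and 15, and 1 E2F form at 131. Ccnb1 held CCAAT at 99 and 67 bases, and Ccnb2 held CCAAT at 87, 54 and 21 and TTTGAA at 167. CCAAT was present in 33.8% of the 32851 promoters of the table, TTTGAA in 15.99% and an E2F form in 1.86%. Of the other members in the table, Cdk2 held CCAAT at 45 bases and an E2F form at 140, 1 of the 2 start sites of Ccnd3 held CCAAT, and the windows of Cdk4 and Ccne1 held none of the words. No motif overlapped another. Whether these words relate to the levels in the hearts was not tested. Promoters of Ccna2, Ccnd1 and Ccnd2 were not analysed here.

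CDK inhibitors bind the kinases or their complexes with cyclins and hold them inactive. Of the 7 inhibitors 0 were called by limma, 5 had a positive and 2 a negative difference, and their median log2 fold change was 0.10. Cdkn1a, which encodes p21, the inhibitor induced by p53, was the most abundant. It gave 3698.1, 2951.2 and 3698.6 normalized counts with control mimic and 4221.9, 3862.0 and 3604.7 with miR-19a/19b mimic, a fitted ratio of 1.13 (95% interval 0.929 to 1.38). In the miR-19a/19b mimic group it was lowest in replicate 3, the reverse of the mitotic genes. The inhibitors did not share this pattern, since 4 of the 7 were at their highest of all hearts in that replicate. These were Cdkn2a at 51.9, Cdkn2c at 1219.7, Cdkn2d at 723.5 and Cdkn2b at 159.9 normalized counts. For Cdkn2b the next heart, control mimic replicate 3, was at 159.8. Mean levels of Cdkn1b (p27) were 1580 ± 237 and 1687 ± 111 (SD, n = 3 each), and those of Cdkn1c (p57) were 96.1 ± 8.996 and 112 ± 14.2.

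Among inhibitors of the Cdk4 type, Cdkn2c (p18) had means of 946 ± 70.2 (control mimic) and 1069 ± 147 (miR-19a/19b mimic; SD, n = 3 each). Cdkn2d (p19) had 656 ± 49.6 and 697 ± 34.2, and Cdkn2b (p15) had 139 ± 19.2 and 121 ± 34.8. Cdkn2a, whose locus encodes p16 and p19Arf, was low, at 42.8 ± 3.09 and 40.4 ± 10.2 normalized counts. Each of the 7 inhibitors overlapped between the groups.

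Other cyclins and kinases of the cycle were likewise not called, 0 of the 9 tested, of which 7 had a positive difference with all hearts and 4 without miR-19a/19b mimic replicate 3. Ccne2 (cyclin E2) had means of 168 ± 32.5 and 159 ± 11.9 (SD, n = 3 each). Cdk6, the other kinase of the D cyclins, gave 1043.3, 1272.6 and 1061.3 normalized counts with control mimic and 1020.0, 964.0 and 1033.0 with miR-19a/19b mimic. Its groups did not overlap, as held for 9.2% of all genes, and the 95% interval of the fitted ratio of 0.897 (0.756 to 1.06) includes 1. Cdk6 lay below all controls in each heart with miR-19a/19b mimic, and replicate 3, where Cdk4 was highest, had the highest Cdk6 of that group.

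In the Rb and E2F list, 0 of 19 genes were called, 12 had a positive difference, and the median log2 fold change was 0.01. Without miR-19a/19b mimic replicate 3, 4 were positive and 15 negative, with a median of -0.09. The median was also negative when scaled to total reads (-0.012) and with array weights (-0.074). It was negative without control mimic replicate 1 (-0.032) or 3 (-0.033) too, so the list had no stable direction. Rb1, the substrate of the D cyclin kinases, had means of 686 ± 70.9 and 633 ± 68.4, and E2f1, an activator of S phase genes, had 495 ± 47.6 and 556 ± 159 (SD, n = 3 each). Foxm1, a transcription factor of mitotic genes, gave 657.6, 786.6 and 667.0 normalized counts with control mimic and 609.0, 637.1 and 912.8 with miR-19a/19b mimic, and Mybl2, another of the late cycle, had means of 286 ± 37.7 and 300 ± 74.2.

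The enzymes that set the inhibitory phosphorylation of Cdk1 and Cdk2 were 5 genes, of which 0 were called and 4 had a positive difference. The phosphatases that remove it had means of 336 ± 24.0 and 344 ± 50.4 for Cdc25a, 541 ± 33.4 and 611 ± 117 for Cdc25b, and 133 ± 34.5 and 126 ± 45.0 for Cdc25c (SD, n = 3 each). Wee1, a kinase that adds it, gave 528.3, 694.9 and 723.1 normalized counts with control mimic and 1002.7, 818.6 and 574.0 with miR-19a/19b mimic. Its highest hearts were miR-19a/19b mimic replicates 1 and 2, the hearts with the highest cardiomyocyte sums. Pkmyt1, the related kinase at membranes, was named after its values were seen, because it alone in the pathway lists passed 0.05 without adjustment in limma (0.045, or 1 after adjustment). It gave 258.6, 355.2 and 246.6 normalized counts with control mimic and 331.4, 352.6 and 522.1 with miR-19a/19b mimic, and the groups overlapped.

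Of 19 genes that degrade cyclins or their inhibitors, 0 were called, 11 had a positive difference and the median log2 fold change was 0.03, with 9 positive without miR-19a/19b mimic replicate 3. Cdc20, which directs the anaphase-promoting complex to the B cyclins, gave 859.9, 942.7 and 716.6 normalized counts with control mimic and 777.9, 892.8 and 1293.2 with miR-19a/19b mimic. Like both B cyclins, it was highest in miR-19a/19b mimic replicate 3.

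In the list of 30 replication and mitosis genes, 0 were called, 27 had a positive difference and the median log2 fold change was 0.11. Replicate 3 of the miR-19a/19b mimic was the highest heart for 28 of the 30. Without it 7 of the 30 were positive and the median was -0.08, so the direction of the list rested on that heart. Mki67, a marker of cycling cells, gave 2105.5, 2855.5 and 2224.4 normalized counts with control mimic and 2168.0, 2235.1 and 3158.6 with miR-19a/19b mimic. Aurkb, a mitotic kinase, had means of 469 ± 51.4 and 533 ± 130 (SD, n = 3 each).

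Some reads of these genes could belong to a neighbour or a copy. On the opposite strand, exons of Ccnd1 share 1100 bases with LTO1, those of Cdk4 share 641 with Tspan31, those of Ccna2 share 510 with Exosc9 and those of Ccnd3 share 361 with Bysl. Ccnd2 shares 368 and 372 bases with the antisense genes 9330179D12Rik and Gm43126, and Cdk2 shares 34 with Pmel. Counting by strand is not stated, so reads in these stretches cannot be assigned. Mean normalized counts of the neighbours were 1286 for Tspan31, 830 for Bysl, 435 for LTO1 and 320 for Exosc9. Ccnb2, Ccne1 and Cdk1 had neither an overlap nor a near-identical copy. Ccnb1 had no overlap and 5 processed or unprocessed pseudogene copies of at least 95% identity, the longest 1294 bases, of which Ccnb1-ps was at 2.54 and Gm12856 at 1.13 mean normalized counts against 709 for Ccnb1. The copy Ccnd3-ps, with 881 aligned bases at 96.3% identity to Ccnd3, was listed at 0 in all hearts.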

How the data were processed

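RNA-seq libraries of 6 infarcted hearts were grouped by their labels, 3 per mimic. The authors aligned paired-end reads with STAR 2.5.1b and counted reads per gene with HTSeq 0.6.0, and the submitters' processing notes also name DESeq2 1.10.1. The deposited signal is a normalized count (reads divided by a size factor), and 100% of values came out as whole reads within 0.01. The notes list mm9, but the deposited coordinates match GENCODE M21 (GRCm38) for start and end in 82.7% of the genes found there, and they are given on that build. Columns of the authors' own fold changes and p-values were not used.

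Groups were compared with limma 3.58.1 in R 4.3.3. The prior followed the mean (trend), values were log2(normalized count + 1), genes needed a mean of 1 or more, and p-values had Benjamini-Hochberg adjustment. The paper's methods name edgeR, which needs counts, so edgeR 4.0.16 and DESeq2 1.42.0 on recovered reads are alternatives, with limma-voom, other scalings, pseudocounts and filters, array weights, a replicate block and each heart left out. Of these fits, the main limma fit alone was also run on simulated data. Copies of at least 150 aligned bases were sought with BLAST 2.17.0. Depth was 19398196 to 23645308 reads on genes, and intervals reflect the spread between hearts. An exact permutation test of 3 against 3 hearts cannot go below p = 0.1 (two-sided) and was not run. The labels do not say which hearts were processed together. The limma p-values set the difference between groups against the spread between these hearts, moderated by the prior.

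The members and lists were chosen with earlier results of these data known. The genes named are the 10 members, all CDK inhibitors, Ccne2, Cdk6, E2f1, Rb1, the Cdc25 genes, Wee1, Foxm1, Mybl2, Cdc20, Mki67, Top2a, Aurkb, any gene called, and the 5 genes closest in pattern to Cdk1, Ccnb1 and Ccnd1 (1 of these is not reported here).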

Additional observations from a re-analysis of the deposited data

How the results depend on the processing

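None of the 10 cyclins and kinases was called under any alternative, and the smallest adjusted p of any was 0.581, for Ccnd2. The replicate block gave 0 genes called, of which 0 were cyclins or kinases. Deviations from the group means had correlations of -0.008, -0.021 and -0.115 between same-numbered hearts. Between hearts of other numbers they ran from -0.103 to 0.116. Group means of 3 hearts, with miR-19a/19b mimic replicate 3 standing apart, leave these correlations unable to decide whether the numbers pair the hearts. Over all genes, 0 were called by limma, 27 by DESeq2 (1 higher, 26 lower), 3 with array weights, 0 by edgeR's quasi-likelihood test, and 848 at an unadjusted p under 0.05. Leaving out 1 heart gave 0 to 515 genes, the latter without miR-19a/19b mimic replicate 3. With 1 heart left out, log2 fold changes ran from -0.00351 to 0.0673 for Ccnd3, -0.123 to 0.151 for Cdk4, -0.0286 to 0.158 for Cdk2, -0.190 to 0.195 for Ccna2, -0.0400 to 0.248 for Ccnb1, -0.0367 to 0.338 for Ccnb2 and -0.121 to 0.157 for Cdk1, while Ccnd1 and Ccnd2 stayed negative and Ccne1 positive. Without miR-19a/19b mimic replicate 1, Ccnd2 was the 1 member with an unadjusted p under 0.05. Scaling to total reads turned Cdk4 to -0.00183 and Ccna2 to -0.0172. Array weights turned Cdk4 to -0.00386, Cdk2 to -0.000135, Ccna2 to -0.0295 and Cdk1 to -4.69e-05. Per length of the longest transcript, levels became 54.6 for Cdk4, 9.56 for Cdk2, 25.1 for Ccnd3, 13.2 for Ccnd1, 13.4 for Ccna2, 11.7 for Ccnd2, 13.3 for Ccnb1 and 3.87 for Ccne1. With the 8-mer alone, 2 genes held a seed match. With 3 hearts per group, differences of the size of the 95% intervals could not be told from the spread between hearts.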
